A study of Mus musculus with 32 samples.

Results

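Kidney expression was described for 89 genes of the mitochondrial respiratory chain and ATP synthase, out of 22180 genes measured with Affymetrix Mouse Gene 2.0 ST arrays. Members were taken by gene symbol: 42 Nduf genes for complex I, Sdha, Sdhb, Sdhc and Sdhd for complex II (4 genes), 8 Uqcr genes for complex III, 17 genes of the Cox4 to Cox8 families for complex IV, and 18 Atp5 genes for complex V. The symbols also take in 8 complex I assembly factors (Ndufaf genes) and the pseudogenes Uqcrh-ps1 and Atp5c1-ps, which are described apart from structural subunits. A further 9 symbols of the same families, among them Ndufb2, Ndufs6, Uqcr10 and Cox6c, share their array features with other genes and were not analysed here.

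The samples were whole kidneys of male mice of strain 129. The groups were Col4a3-/- mice (KO) and littermate Col4a3+/+ controls (WT) at 7 weeks of age, and the same genotypes at 4 weeks, with 8 mice and 8 arrays in each. Col4a3 encodes a collagen IV chain of the glomerular basement membrane, and mice without it are used as a model of Alport syndrome, a progressive kidney disease. Values are gene-level signals on the log2 scale, so a difference of 1 is a doubling, and levels of different genes cannot be set against each other.

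The array labels were checked on Col4a3 itself, which was lower in KO than in WT kidneys, with log2 differences of -1.65 ± 0.125 at 7 weeks and -0.99 ± 0.125 at 4 weeks (± SE), with no overlap between the genotypes at either age. Within a group, correlations between arrays across genes lay between 0.965 and 0.995. The median signal of an array averaged 0.114 higher in KO than in WT mice at 7 weeks and 0.0166 higher at 4 weeks. KO mouse 4 of the 4-week group had the lowest mean correlation with its group, and its member mean was the lowest among KO mice of that age, as given below. Unless stated otherwise a difference is a log2 difference ± SE with 8 mice per group, and a gene was called when its p from limma, adjusted over all 22180 genes, was below 0.05.

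Complexes I to IV of the respiratory chain pass electrons from NADH and succinate to oxygen, and complexes I, III and IV pump protons across the inner mitochondrial membrane as they do so. Complex V, the ATP synthase, uses that proton gradient to make ATP. Most subunits are encoded in the nucleus, and a small set in complexes I, III, IV and V is encoded by mitochondrial DNA. In the kidney the proximal tubule is rich in mitochondria and depends on this pathway for the energy of solute transport.

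Promoters were read for 72 of the 87 members that are not pseudogenes, as 250 bases before and 50 bases after the annotated start (RefSeq, GRCm38.p6). Motifs named for nuclear regulators of respiratory genes were searched on both strands: GCGCANGCG for NRF1, CCGGAAGT for the ETS family that includes GABPA, AANATGGCG for YY1 and TNAAGGTCA for the estrogen-related receptors (ERR). Shares are of genes, and a gene counted when any of its listed promoters held the letters. The NRF1 letters were found for 27.8% of the 72 members and 7.03% of the 27025 genes with a listed promoter, and the YY1 letters for 13.9% and 2.76%. The ETS letters were found for 6.94% of members and 4.31% of all listed genes, and the ERR letters for 2.78% and 1.43%. At least 1 of the 4 motifs was found for 45.8% of members and 14.0% of all listed genes. Split by the 7-week result, NRF1 letters were found for 10 of 41 members called lower and 10 of 31 not called. The counts were 5 of 41 and 5 of 31 for YY1 letters, 3 of 41 and 2 of 31 for ETS letters, and 2 of 41 and 0 of 31 for ERR letters. A match describes letters in this window and no binding was measured.

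The 6 promoters below belong to genes whose values are given further on. Sdhd, Ndufs3 and Ndufa9 were called lower in KO kidneys at 7 weeks and hold, in that order, NRF1 and ERR, ETS, and YY1 letters. Atp5g3, Atp5g2 and Atp5g1 are the gene trio for subunit c of the ATP synthase, of which only Atp5g3 was called at 7 weeks. Each runs 5′ to 3′ along its gene, and capitals mark the motif letters.
Sdhd: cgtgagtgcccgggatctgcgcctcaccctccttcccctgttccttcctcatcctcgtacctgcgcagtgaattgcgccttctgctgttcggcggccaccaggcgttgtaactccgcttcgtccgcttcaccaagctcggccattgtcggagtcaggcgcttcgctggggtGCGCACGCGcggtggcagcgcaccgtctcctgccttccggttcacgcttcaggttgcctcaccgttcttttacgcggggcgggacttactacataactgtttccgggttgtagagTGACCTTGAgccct
Ndufs3: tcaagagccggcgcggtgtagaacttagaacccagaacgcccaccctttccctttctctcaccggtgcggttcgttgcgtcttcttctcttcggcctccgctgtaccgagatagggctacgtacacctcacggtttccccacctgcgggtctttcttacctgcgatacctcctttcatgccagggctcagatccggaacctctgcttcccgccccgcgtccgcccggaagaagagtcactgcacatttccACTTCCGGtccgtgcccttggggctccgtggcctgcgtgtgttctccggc
Ndufa9: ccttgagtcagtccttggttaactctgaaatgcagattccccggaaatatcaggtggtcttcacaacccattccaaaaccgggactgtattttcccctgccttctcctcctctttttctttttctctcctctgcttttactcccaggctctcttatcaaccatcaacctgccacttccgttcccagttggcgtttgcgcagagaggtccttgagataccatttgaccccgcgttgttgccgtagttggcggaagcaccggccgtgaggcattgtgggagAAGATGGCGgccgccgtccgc
Atp5g3: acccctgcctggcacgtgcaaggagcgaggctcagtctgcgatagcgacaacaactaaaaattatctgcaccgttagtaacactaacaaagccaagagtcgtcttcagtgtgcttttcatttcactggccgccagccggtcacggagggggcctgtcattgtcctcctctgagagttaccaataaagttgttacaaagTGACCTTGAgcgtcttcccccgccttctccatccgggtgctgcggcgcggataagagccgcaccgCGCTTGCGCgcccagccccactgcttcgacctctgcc
Atp5g2: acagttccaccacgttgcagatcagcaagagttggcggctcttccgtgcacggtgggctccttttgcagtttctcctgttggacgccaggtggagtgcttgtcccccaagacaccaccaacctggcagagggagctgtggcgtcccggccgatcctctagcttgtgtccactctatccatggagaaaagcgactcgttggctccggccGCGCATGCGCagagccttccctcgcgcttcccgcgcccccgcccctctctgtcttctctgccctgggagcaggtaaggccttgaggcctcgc
Atp5g1: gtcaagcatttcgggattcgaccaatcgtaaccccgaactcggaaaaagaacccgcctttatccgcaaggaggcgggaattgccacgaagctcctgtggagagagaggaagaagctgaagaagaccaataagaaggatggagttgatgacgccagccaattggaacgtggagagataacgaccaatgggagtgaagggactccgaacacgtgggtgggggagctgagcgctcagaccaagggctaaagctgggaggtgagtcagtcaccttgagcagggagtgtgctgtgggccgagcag

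All 6 genes lie on the minus strand. The windows are chr9:50603800-50604099 for Sdhd, chr2:90904672-90904971 for Ndufs3, chr6:126849095-126849394 for Ndufa9, chr2:73911277-73911576 for Atp5g3, chr15:102670998-102671297 for Atp5g2 and chr11:96075582-96075881 for Atp5g1. Counting from 0 at the start site, the Sdhd window holds NRF1 letters at -79 and ERR letters at 36, and the Atp5g3 window holds ERR letters at -52 and NRF1 letters at 13. Ndufs3 has ETS letters at 0, Ndufa9 has YY1 letters at 29, and the palindrome in Atp5g2 matches the NRF1 letters on both strands, at -42 and -41. None of the 4 motifs was found in the Atp5g1 window.

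At 7 weeks, 51 of the 89 members were lower in KO than in WT kidneys and 0 were higher, with genes of every complex among the 51. The members called lower were 57.3% of the set, beside 16.7% of all genes called lower and 15.6% called higher at this age. The median difference was -0.26 over the members and -0.06 over all genes, and 87 of 89 members had a negative difference. Differences were modest in size, between -0.91 for Cox6a2 and 0.09 for Cox7b2, and 21 of the 89 members had all 8 KO mice below all 8 WT mice (5.42% of all genes had this). In whole-kidney RNA, fewer cells of a type and less RNA per cell cannot be told apart.

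**Figure D1:**
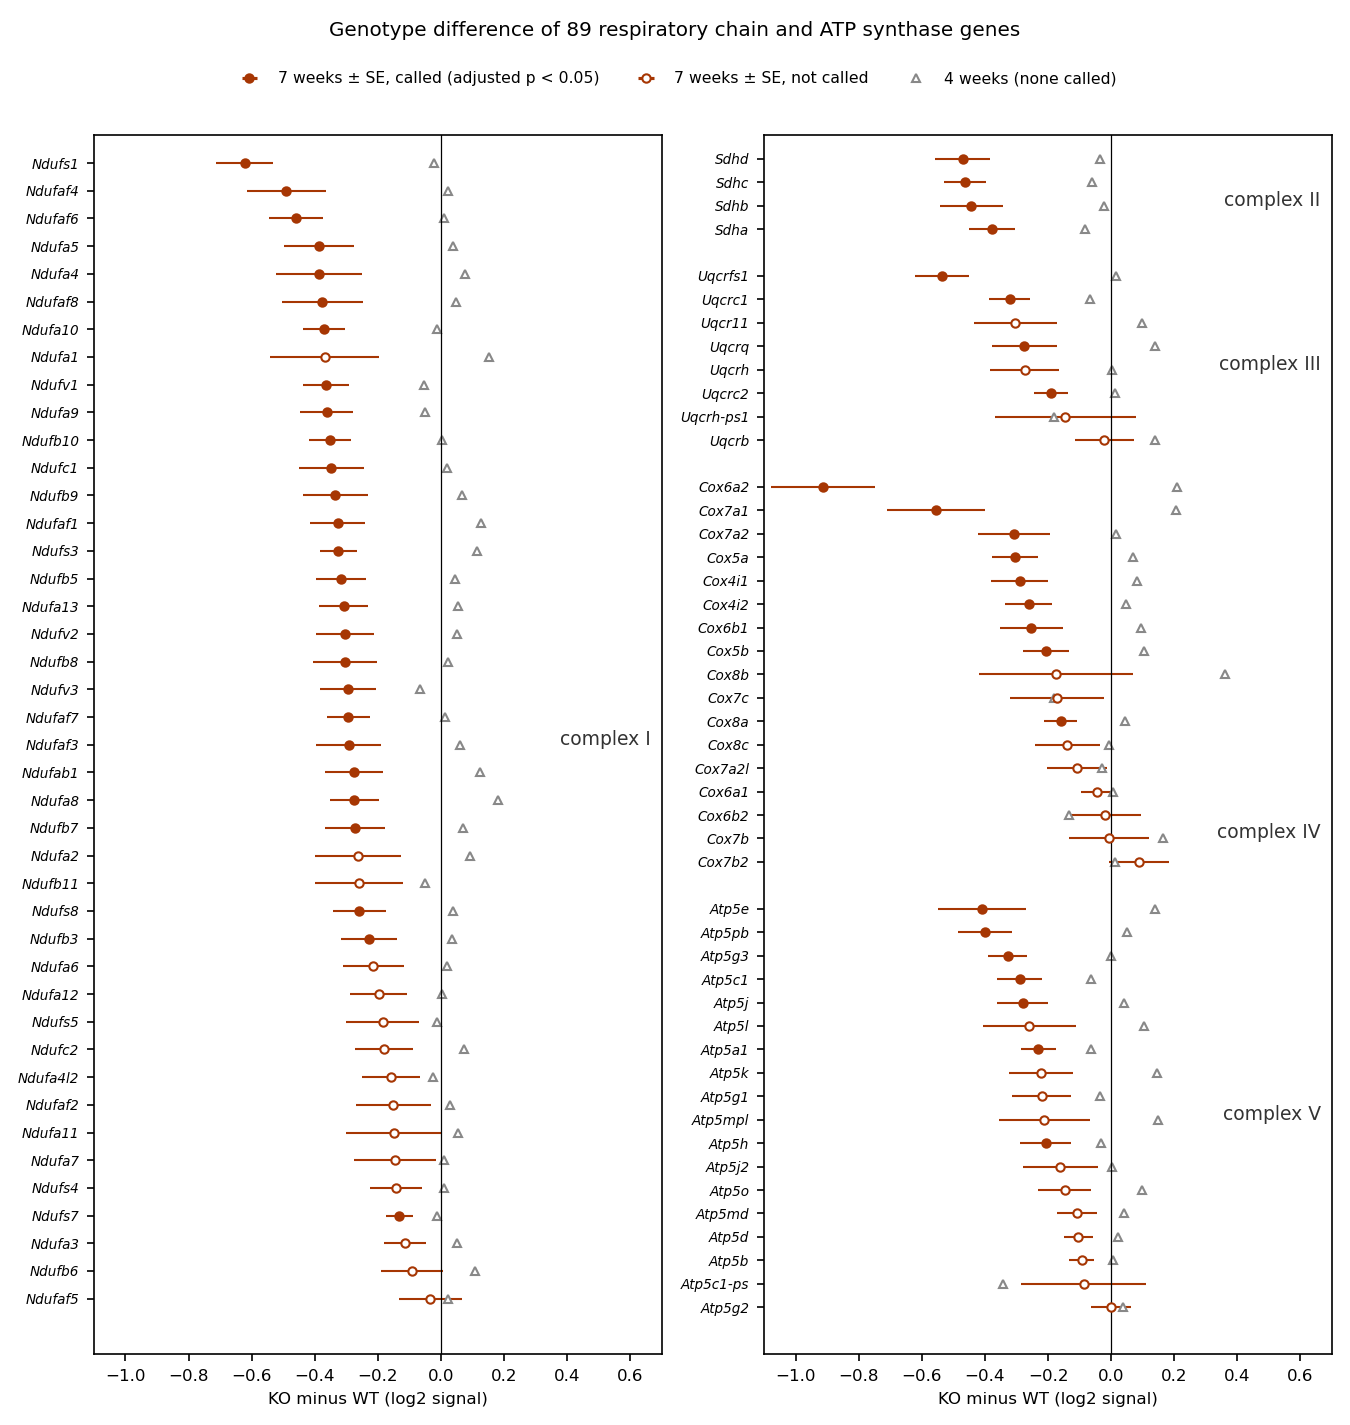
Log2 difference between KO and WT kidneys for each of the 89 genes, grouped by complex (complex I on the left). Circles with SE bars are 7 weeks, filled where called, and grey triangles are 4 weeks, where 0 genes were called; the filled circles all lie left of 0.

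Complex I oxidises NADH. Of its 42 members 27 were lower in KO kidneys at 7 weeks, with a median difference of -0.29. All 6 measured nuclear-encoded core subunits, which carry the electron path, were lower, as were 14 of 26 accessory subunits and 6 of 8 assembly factors. All 42 differences were negative. The ND core subunits encoded by mitochondrial DNA, given apart below, were not called. Ndufs1, the largest core subunit and a carrier of iron-sulfur clusters, lay between 8.91 and 9.60 in KO mice (median 9.35) and between 9.86 and 10.06 in WT mice (median 9.94). The genotypes did not overlap, and the difference was -0.62 ± 0.0897, or 1.54-fold lower (adjusted p = 1.31e-06). Ndufs3, a core subunit of the peripheral arm whose promoter is shown above, ranged between 8.11 and 8.55 in KO mice (median 8.34) and between 8.56 and 8.70 in WT mice (median 8.65). It too had no overlap, and the difference was -0.33 ± 0.0599 (adjusted p = 5.45e-05).

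Among the accessory subunits, Ndufa9, which sits near the quinone site, had a difference of -0.36 ± 0.0833 (adjusted p = 0.000815). Ndufa10, at -0.37 ± 0.0655 (adjusted p = 3.05e-05), had all 8 KO mice below all WT mice. The 12 accessory subunits that were not called had differences between -0.37 for Ndufa1, whose SE was 0.172, and -0.09 for Ndufb6. Ndufs7, a core subunit, changed least among those called in complex I, by -0.13 ± 0.0421 (adjusted p = 0.0144), with no overlap between the genotypes.

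The largest change among assembly factors was that of Ndufaf4, a chaperone for early assembly steps of complex I. Its values lay between 7.99 and 8.67 in KO mice (median 8.27) and between 8.65 and 9.05 in WT mice (median 8.80). A single KO mouse reached the WT range, and the difference was -0.49 ± 0.125 (adjusted p = 0.00242). Ndufaf6 was lower, at -0.46 ± 0.0856 (adjusted p = 6.44e-05), while Ndufaf2 and Ndufaf5, at -0.15 and -0.03, were not called. Ndufa4, named as a complex I subunit but now placed with complex IV, had a difference of -0.39 ± 0.136 (adjusted p = 0.0272). Its relative Ndufa4l2, known as a hypoxia-induced gene, was not called, at -0.16 ± 0.0917 (adjusted p = 0.196).

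Complex II, succinate dehydrogenase, also works in the citric acid cycle and has no subunit encoded in mitochondrial DNA. All 4 subunits were lower in KO kidneys at 7 weeks, with a median difference of -0.45. Sdhd, a membrane anchor, lay between 9.38 and 9.86 in KO mice (median 9.59) and between 9.98 and 10.20 in WT mice (median 10.09). Sdhc, the other anchor, lay between 10.27 and 10.78 in KO mice (median 10.61) and between 10.94 and 11.11 in WT mice (median 11.06). Neither anchor gene overlapped between genotypes. The differences were -0.47 ± 0.0871 for Sdhd (adjusted p = 5.92e-05) and -0.46 ± 0.0675 for Sdhc (adjusted p = 1.54e-06). The flavoprotein gene Sdha differed by -0.38 ± 0.0728 (adjusted p = 9.79e-05), again without overlap, and the iron-sulfur subunit gene Sdhb by -0.44 ± 0.0985 (adjusted p = 0.000573), with 7 of 8 KO mice below every WT mouse.

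Complex III passes electrons on to cytochrome c. Of its 8 members 4 were lower in KO kidneys at 7 weeks, with a median of -0.27. Uqcrfs1, the Rieske iron-sulfur protein, lay between 7.31 and 8.07 in KO mice (median 7.71) and between 8.17 and 8.34 in WT mice (median 8.20). All KO mice lay below all WT mice, and the difference was -0.54 ± 0.0852 (adjusted p = 6.26e-06). Uqcrc1, a core protein, lay between 11.10 and 11.62 in KO mice (median 11.34) and between 11.61 and 11.74 in WT mice (median 11.66), with 1 KO mouse inside the WT range. It was lower, at -0.32 ± 0.0652 (adjusted p = 0.000193). The other core protein gene, Uqcrc2, and the small subunit gene Uqcrq were called as well, at -0.19 ± 0.0526 and -0.27 ± 0.105. Uqcr11, Uqcrh and Uqcrb were not called, at -0.30, -0.27 and -0.02, and neither was the pseudogene Uqcrh-ps1.

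Complex IV, cytochrome c oxidase, hands electrons to oxygen, and several of its nuclear subunits come as a common isoform and one restricted to certain tissues. Of 17 members 9 were lower in KO kidneys at 7 weeks, with a median of -0.18. They were 6 of 10 genes counted as common, a group that includes Cox7a2l, and 3 of 7 counted as restricted. Cox6a2, the isoform of heart and skeletal muscle, lay between 5.95 and 7.54 in KO mice (median 7.08) and between 7.57 and 8.19 in WT mice (median 7.84). The genotypes did not overlap and the difference, the largest of any member, was -0.91 ± 0.165, or 1.88-fold lower (adjusted p = 4.33e-05). The common isoform Cox6a1 lay between 13.01 and 13.24 in KO mice (median 13.08) and between 13.02 and 13.27 in WT mice (median 13.14). The groups overlapped over most of their range, and the difference was -0.04 ± 0.0501 (adjusted p = 0.53).

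Cox7a1, likewise known from heart and muscle, lay between 7.16 and 8.18 in KO mice (median 7.82) and between 8.19 and 8.56 in WT mice (median 8.37). Its groups were separate by a narrow gap, and it was lower, at -0.56 ± 0.156 (adjusted p = 0.00537), while the common isoform Cox7a2 differed by -0.31 ± 0.114 (adjusted p = 0.0356). For subunit 4, the common Cox4i1 and the restricted Cox4i2 had differences of similar size, -0.29 ± 0.0911 (adjusted p = 0.0132) and -0.26 ± 0.0751 (adjusted p = 0.00678). The common Cox8a was lower, at -0.16 ± 0.0515 (adjusted p = 0.0157), while Cox8b and Cox8c, at -0.18 and -0.14, were not called. In the subunit 6b pair only the common Cox6b1 was called, at -0.25 ± 0.0986 (adjusted p = 0.0479), beside -0.02 for Cox6b2. In the subunit 7b pair neither gene was called, at -0.01 for Cox7b and 0.09 for Cox7b2. Whether the members of a pair differ from each other was not tested. Skeletal muscle markers had 1 of 6 genes lower in KO kidneys at 7 weeks, near the 16.7% of all genes called lower. The mean of these markers lay between 5.11 and 5.21 in KO mice and between 5.11 and 5.40 in WT mice. Their part in the Cox6a2 and Cox7a1 values was not tested.

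Complex V had 7 of 18 members lower in KO kidneys at 7 weeks, 3 of 5 in the catalytic F1 part and 4 of 12 in the stalk and membrane part, with a median of -0.22. Atp5e, the epsilon subunit of F1, lay between 7.63 and 8.30 in KO mice (median 7.82) and between 8.15 and 8.46 in WT mice (median 8.28). All but 1 KO mouse lay below the WT mice, and the difference was -0.41 ± 0.139 (adjusted p = 0.0219). Atp5pb, the b subunit of the peripheral stalk, lay between 9.71 and 10.21 in KO mice (median 9.95) and between 10.30 and 10.43 in WT mice (median 10.36). It was the 1 member of complex V without overlap, at -0.40 ± 0.0865 (adjusted p = 0.000407). The beta subunit gene Atp5b, which holds the catalytic sites, was not called, at -0.09 ± 0.0407 (adjusted p = 0.0766), and the alpha subunit gene Atp5a1 was lower, at -0.23 ± 0.0551 (adjusted p = 0.00123).

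Subunit c forms the rotor ring, and Atp5g1, Atp5g2 and Atp5g3 encode the same mature protein with different import sequences. Atp5g3 lay between 9.23 and 9.70 in KO mice (median 9.44) and between 9.67 and 9.81 in WT mice (median 9.77). It was lower, at -0.33 ± 0.0621 (adjusted p = 7.86e-05), with 7 of 8 KO mice below every WT mouse. Atp5g2 lay between 11.20 and 11.36 in KO mice (median 11.34) and between 11.28 and 11.39 in WT mice (median 11.32), which overlapped, and the difference was 0.00 ± 0.0627, with a 95% interval of -0.13 to 0.13. Atp5g1 was not called, at -0.22 ± 0.0934 (adjusted p = 0.0703). The difference between the 3 genes was not tested.

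**Figure D2:**
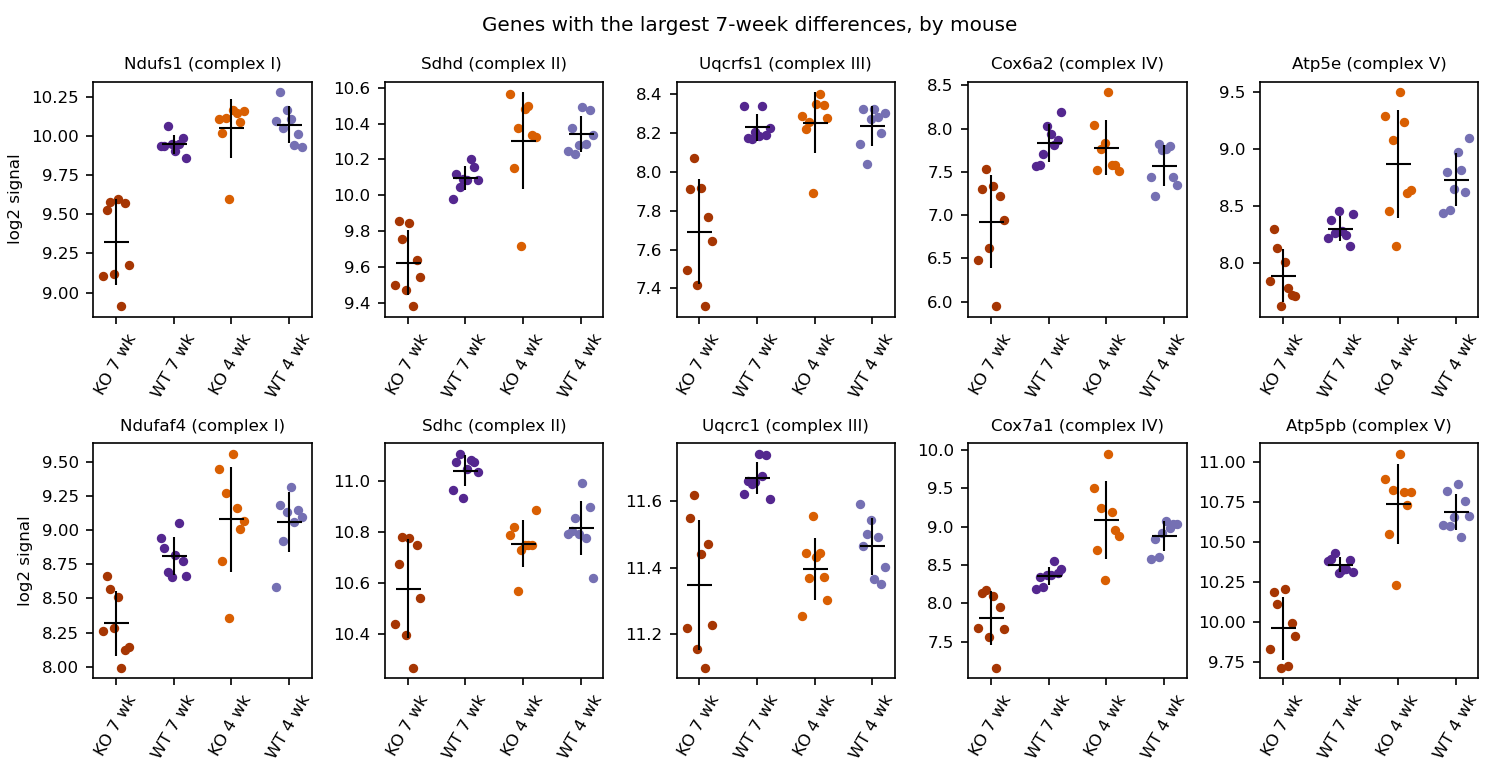
Log2 signal of the 2 called genes with the largest 7-week difference in each complex, with a point per mouse, the group mean and SD bars; groups run KO and WT at 7 weeks, then KO and WT at 4 weeks. Ndufs1, Sdhd, Sdhc, Uqcrfs1, Cox6a2, Cox7a1 and Atp5pb have all 8 KO points below all 8 WT points at 7 weeks, and the genotypes overlap at 4 weeks in every panel.

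Some of these calls depended on the normalization or on single mice. After quantile normalization 12 of the 51 were no longer called: Atp5a1, Atp5h, Cox5b, Cox6b1, Cox7a2, Cox8a, Ndufa4, Ndufb9, Ndufs7, Ndufs8, Ndufv2 and Uqcrc2. Another 5 members gained a call at that setting. When 1 mouse was left out at a time, 39 of the 51 stayed called throughout, and Atp5h, Cox5b, Cox6b1, Cox7a2, Ndufa4, Ndufab1, Ndufaf3, Ndufaf8, Ndufb3, Ndufb7, Ndufs8 and Uqcrq lost the call without at least 1 mouse. When each array was centred on its own median, 72 members were lower, with a median of -0.38. At that setting 37.5% of all genes were lower and 11.6% higher, so the background rose as well. Centring takes the 0.114 shift off every KO minus WT difference at this age, so it cannot test whether the lower direction holds.

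At 4 weeks none of the 89 members was called in either direction, beside 0.0316% of all genes called higher and 0.00902% called lower. A single member had an unadjusted p below 0.05 in limma, beside 2044 of all 22180 genes. An exact rank-sum test called 0 members and 0% of all genes at this age, so its result says nothing particular to the members. The median difference was 0.02 over the members and -0.01 over all genes, and 65 of 89 differences were positive. For Ndufs1 the values lay between 9.60 and 10.17 in KO mice (median 10.11) and between 9.93 and 10.28 in WT mice (median 10.07), and the 95% interval of the difference was -0.21 to 0.16. For Sdhc the interval was -0.20 to 0.08, for Uqcrfs1 -0.16 to 0.19, for Cox6a2 -0.13 to 0.54 and for Atp5pb -0.13 to 0.23. The intervals of Ndufs1, Sdhc, Uqcrfs1, Cox6a2 and Atp5pb at 4 weeks thus did not reach their 7-week estimates.

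Over all members the spread between mice of a genotype was wider at 4 than at 7 weeks. The mean over all 89 members had an SD of 0.122 in KO mice and 0.0277 in WT mice at 7 weeks, and of 0.199 in KO mice and 0.0809 in WT mice at 4 weeks. In KO mice the complex II mean went against this, with an SD of 0.192 at 7 weeks and 0.111 at 4 weeks. So did the mean of the nuclear-encoded core subunits of complex I, at 0.161 and 0.121. KO mouse 4 had the lowest member mean of its 4-week group, at -0.31 relative to the WT mean of that age, and KO mouse 5 the highest, at 0.30. The proximal tubule marker mean was 0.34 in mouse 4 and -0.35 in mouse 5. In mouse 4 the thick ascending limb mean was -0.90, the fibroblast mean 1.00, the podocyte mean 0.81 and the macrophage mean 0.75. In mouse 5 these means were -0.08, 0.23, -0.37 and 0.14. The median 4-week difference of the members was 0.10 without KO mouse 4 and -0.00545 without KO mouse 5, so its sign rests on single mice, and none was called in either case. The part of these marker differences in the member values was not tested.

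Cox8b, the isoform of brown fat and muscle, had its highest value of all 32 mice in KO mouse 3 at 4 weeks, 7.12, beside a group median of 5.05 in KO mice and 5.10 in WT mice. The brown fat markers Ucp1 and Cidea were also highest in that mouse, at 6.23 and 6.43, beside KO medians of 4.81 and 5.17. Relative to the 4-week WT mean, its mean over all 5 fat markers was 0.78 and its skeletal muscle marker mean -0.10. The part of these tissues in the Cox8b value was not tested.

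The genotype difference was more negative at 7 weeks than at 4 weeks for 29 of the 89 members, or 32.6%, by the interaction test, and for 0 it was more positive. Among all genes 7.24% were called lower and 9.8% higher in this test. The 29 comprised 13 genes of complex I, all 4 of complex II, 2 of complex III, 7 of complex IV and 3 of complex V. When 1 mouse was left out at a time, 18 of the 29 stayed called throughout. The call was lost without at least 1 mouse for Sdha, Sdhb, Ndufaf4, Ndufv1, Ndufab1, Uqcrq, Cox4i1, Cox4i2, Cox5b, Cox8a and Atp5j, in 21 of 32 fits for Sdha and 7 of 32 for Sdhb. After quantile normalization Sdha, Sdhb, Ndufa13, Ndufv1, Cox4i1, Cox5b and Cox8a were not called, so of complex II Sdhc and Sdhd kept the call under both. The change was -1.12 ± 0.234 for Cox6a2 (adjusted p = 0.000855), -0.60 ± 0.127 for Ndufs1 (adjusted p = 0.001), -0.55 ± 0.121 for Uqcrfs1 (adjusted p = 0.00134) and -0.44 ± 0.0847 for Ndufs3 (adjusted p = 0.000371). Uqcrc1 and Atp5e, at -0.25 and -0.55, did not pass (adjusted p = 0.0542 and 0.0514). Leaving out 1 mouse moved the count, to 48 without KO mouse 4 of the 4-week group, and to 19 without KO mouse 1, 4, 6 or 8 of the 7-week group. It was also 52 with arrays centred on their medians and 45 with array weights, in which KO mice 4 and 5 at 4 weeks had low weights of 0.34 and 0.39.

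**Figure D3:**
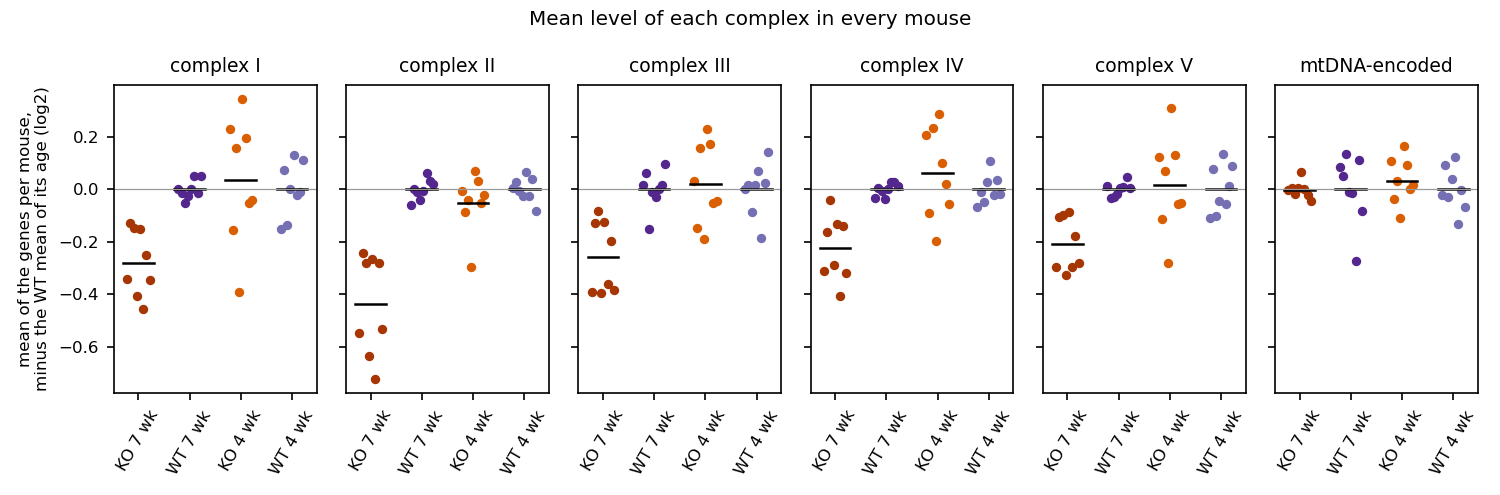
Mean log2 level of the genes of each complex in every mouse, minus the WT mean of the same age, with the mitochondrially encoded subunits at the right; bars are group means. At 7 weeks the KO points lie below 0 in all 5 complexes and around 0 for the mitochondrially encoded subunits, while KO points at 4 weeks spread on both sides of 0.

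The 8 KO mice at 7 weeks differed in how far they lay below the WT mice. Relative to the WT mean, the member mean was -0.34, -0.14, -0.12, -0.38, -0.14, -0.42, -0.21 and -0.34 in mice 1 to 8. The proximal tubule marker mean was -0.80, -0.31, -0.10, -0.62, -0.19, -0.98, -0.17 and -0.58 in the same mice. The macrophage marker mean was 2.98, 2.16, 1.71, 3.00, 2.15, 3.10, 2.30 and 2.92. Mice 1, 4, 6 and 8 were the lowest 4 in the member mean and in the proximal tubule mean and the highest 4 in the macrophage mean. They were also the lowest 4 in complex II, whose mean was lowest in mouse 6, at -0.72, and highest in mouse 2, at -0.24. The mitochondrially encoded subunits of the same mice lay between -0.05 and 0.07.

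Markers of several cell types also differed between the genotypes at 7 weeks. All 11 proximal tubule markers were lower in KO kidneys, with a median of -0.45, and their mean lay between 11.47 and 12.35 in KO mice and between 12.38 and 12.50 in WT mice. All 6 macrophage markers were higher, with a median of 2.61, and their mean lay between 8.43 and 9.82 in KO mice and between 6.52 and 6.96 in WT mice. All 6 fibroblast markers were higher, with a median of 1.65, and their mean lay between 8.99 and 9.84 in KO mice and between 7.65 and 7.91 in WT mice. Of T cell markers 4 of 5 were higher. Lower were 3 of 4 distal convoluted tubule, 3 of 5 intercalated cell, 1 of 5 collecting duct, 2 of 5 endothelial and 1 of 5 fat markers. Of 5 thick ascending limb markers 1 was higher and 1 lower. Over all genes 16.7% were called lower and 15.6% higher at this age, so counts of 1 of 5 lie near that share. In the collecting duct list 4 of 5 differences were positive, with a median of 0.06. None of 4 podocyte markers was called. The part of these cell types in the lower respiratory chain signals was not tested.

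Between 4 and 7 weeks of age members fell in both genotypes. In KO kidneys 73 of 89 members, or 82.0%, were lower at 7 than at 4 weeks and 0 were higher, with a median of -0.54. Among all genes 21.3% were lower and 21.4% higher. In WT kidneys 45 members, or 50.6%, were lower at 7 weeks and 5, or 5.62%, were higher, with a median of -0.25, beside 14.1% of all genes lower and 15.4% higher. The WT count lay between 38 and 48 when each mouse was left out. Across the 89 genes the age differences in KO and in WT kidneys correlated at 0.75 (Pearson and Spearman), a description of genes measured on the same arrays.

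The 5 members that rose with age in WT kidneys were Ndufa10, Ndufv1 and Ndufs7 of complex I, Sdhc of complex II and Uqcrc1 of complex III, the last not called after quantile normalization. Ndufa10 averaged 11.54 ± 0.06 at 7 weeks and 11.27 ± 0.08 at 4 weeks in WT mice (SD), a rise of 0.27 ± 0.0655 (adjusted p = 0.00179). In KO mice it averaged 11.17 ± 0.20 at 7 weeks and 11.26 ± 0.08 at 4 weeks, and the difference of -0.09 ± 0.0655 was not called. Sdhc rose by 0.23 ± 0.0675 in WT kidneys (adjusted p = 0.0105) and fell by 0.18 ± 0.0675 on the log2 scale in KO kidneys (adjusted p = 0.033). The KO call for Sdhc was lost when any of 7 KO mice was left out, namely mice 1, 4, 6 and 8 at 7 weeks and mice 1, 2 and 8 at 4 weeks. The age effect of Ndufa10, Ndufv1 and Sdhc differed between genotypes by the interaction test, at -0.36, -0.31 and -0.40, though that of Ndufv1 lost the call in 7 of 32 fits with 1 mouse left out, while those of Ndufs7 and Uqcrc1, at -0.12 and -0.25, did not pass it.

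The steepest fall with age in KO kidneys was that of Cox7a1, by 1.28 ± 0.156 (adjusted p = 5.47e-08), and the gene fell by 0.52 ± 0.156 in WT kidneys (adjusted p = 0.00998), both on the log2 scale. Cox6a2 differed between ages in KO kidneys, at -0.86 ± 0.165 (adjusted p = 7.49e-05), and was 0.26 ± 0.165 in WT kidneys (adjusted p = 0.259). Atp5g2, which did not differ between genotypes at 7 weeks, was lower at 7 than at 4 weeks in both, by -0.26 in KO and -0.22 in WT kidneys. Of the proximal tubule markers in WT kidneys, 7 of 11 rose and 1 fell with age.

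**Figure D4:**
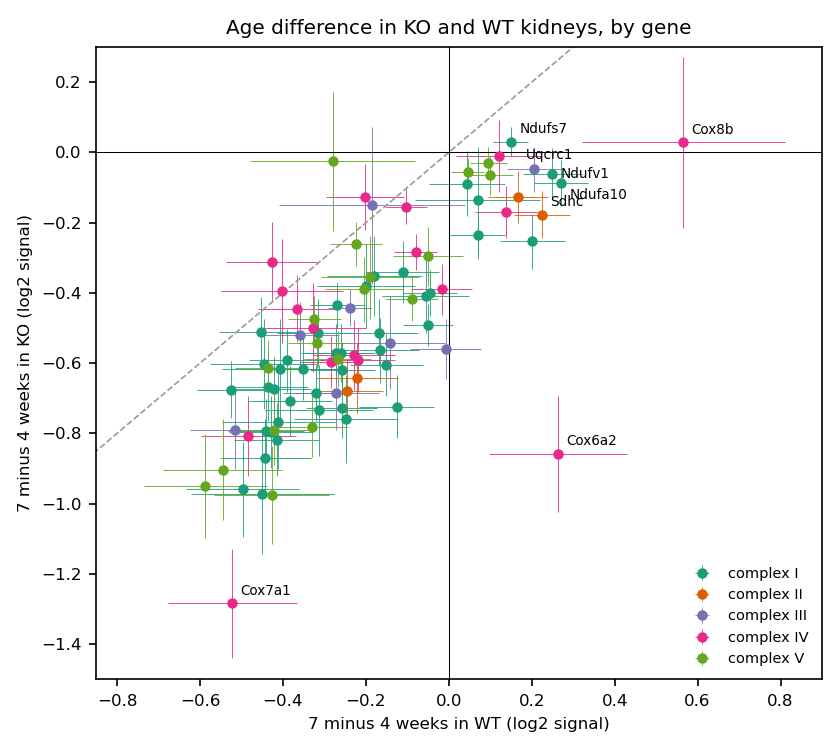
Log2 difference between 7 and 4 weeks in KO kidneys (vertical) against that in WT kidneys (horizontal) for the 89 genes, coloured by complex, with SE bars and a dashed line of equal change. Most points lie below the line and left of 0, and Ndufa10, Ndufv1, Ndufs7, Sdhc and Uqcrc1 are among those to the right of 0.

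Of the subunits encoded by mitochondrial DNA, 10 were measured alone. Of these, namely ND1, ND2, ND3, ND4, ND4L, ND5, ND6, CYTB, COX1 and COX3, 0 were called between KO and WT kidneys at 7 weeks in limma. At unadjusted p below 0.05 the count was also 0, beside 9071 of all 22180 genes. The median difference of the 10 was 0.00 and the extremes were -0.08 for ND3 and 0.07 for ND6. Their mean lay between 12.55 and 12.66 in KO mice and between 12.32 and 12.73 in WT mice. All but ND6 had group means of 12.99 or more at 7 weeks, near the highest value on the arrays, 14.0, and whether saturation narrowed their differences was not tested. With age 9 of 10 fell in KO and 5 of 10 in WT kidneys, beside 21.3% and 14.1% of all genes.

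Among the electron carriers between the complexes, 2 of 3 cytochrome c and c1 genes were lower in KO kidneys at 7 weeks. At this age 16.7% of all genes were called lower. Cytochrome c1 (Cyc1), a complex III subunit outside the symbol families, was lower, at -0.32 ± 0.0589 (adjusted p = 4.97e-05), and cytochrome c (Cycs) by -0.24 ± 0.0834 (adjusted p = 0.0228). The testis form Cyct was not called. All 11 measured genes of coenzyme Q synthesis, of 12 listed, were lower. The largest changes were those of Coq8a, an atypical kinase that supports the pathway, at -0.66 ± 0.13, of the lipid-binding Coq9 at -0.52 ± 0.0764 and of the methyltransferase Coq3 at -0.42 ± 0.0906.

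Of 40 measured assembly factors outside the symbol families, 19 were lower and 1 higher in KO kidneys at 7 weeks. Over all genes 16.7% were called lower and 15.6% higher. Acad9 and Ecsit, partners in complex I assembly, were lower, at -0.80 ± 0.118 and -0.62 ± 0.105, and Coa6, a copper-handling factor of complex IV, by -0.61 ± 0.14. The complex III factor Uqcc2, named after its value was seen, was the 1 gene higher, by 0.46 ± 0.146 (adjusted p = 0.0139). In the citric acid cycle, which feeds the chain with NADH and succinate, 10 of 12 measured genes were lower, led by Dld at -0.47 ± 0.0978, Sucla2 at -0.47 ± 0.0885 and Ogdh at -0.45 ± 0.131.

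Among 14 regulators of mitochondrial genes, 9 were lower and 1 higher in KO kidneys at 7 weeks. The shares of all genes called lower and higher were 16.7% and 15.6%. Ppara, a receptor that drives fatty acid oxidation, was lower, at -0.73 ± 0.148, and the coactivator genes Ppargc1b and Ppargc1a by -0.56 ± 0.139 and -0.42 ± 0.0705. Tfam, which packages mitochondrial DNA and helps start its transcription, was lower, at -0.47 ± 0.12 (adjusted p = 0.00226) and Esrra, an estrogen-related receptor, by -0.41 ± 0.0763. Gabpa was lower, at -0.16 ± 0.0552 (adjusted p = 0.0207). Nrf1 was not called, at 0.10 ± 0.0558 (adjusted p = 0.185), and the coactivator relative Pprc1, named after its value was seen, was higher by 0.32 ± 0.119 (adjusted p = 0.0353). At 4 weeks 0 genes of these lists were called. At unadjusted p below 0.05, 2 of 40 assembly factors and 1 of 14 regulators passed in limma at that age, beside 2044 of all 22180 genes.

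**Figure D5:**
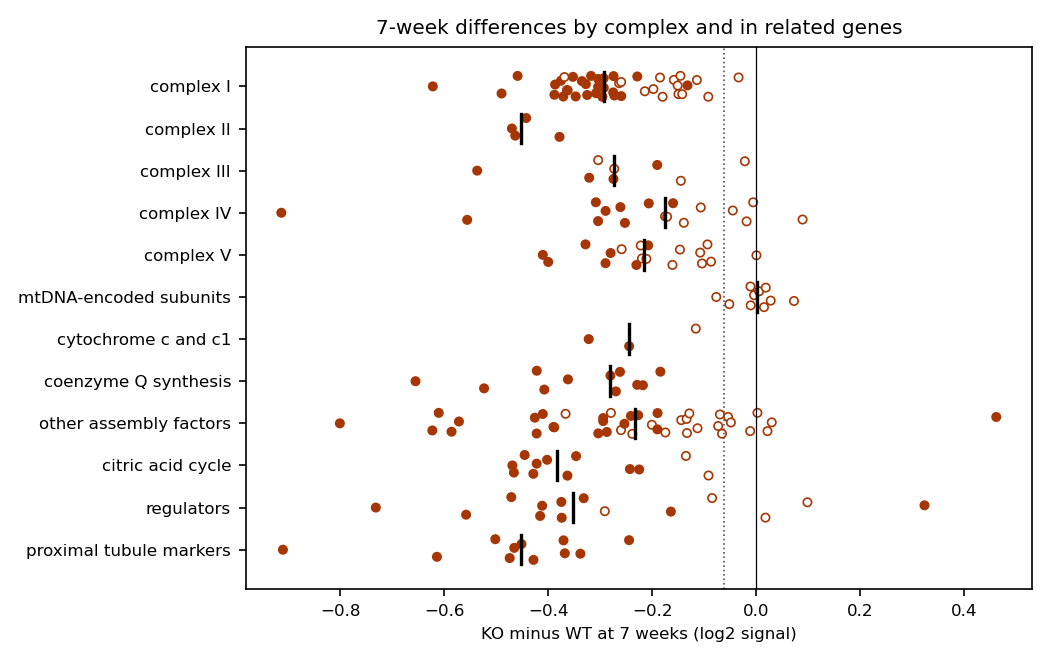
Log2 difference between KO and WT kidneys at 7 weeks for each gene, by complex and by list of related genes; filled points were called, black bars are list medians, the solid line is 0 and the dotted line the median of all genes, -0.06. The mitochondrially encoded subunits centre on 0.00, while the 5 complexes, coenzyme Q synthesis, the citric acid cycle and proximal tubule markers lie to the left.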

How the data were processed

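Values were gene-level signals on the log2 scale as deposited, made per the labels by robust multi-array averaging (RMA) in Expression Console (version not given in the sources used), and the submitters' processing notes name the same tools. Of 41345 features, 23521 named 1 gene symbol in the array annotation, and for the 1082 genes with several such features the one with the highest mean was kept, which gave 22180 genes (21994 matched to RefSeq). For 9 members more than 1 feature existed. Members and gene lists were chosen with earlier results of these data known. A linear model in limma 3.58.1 (R 4.3.3) held a mean for each of 4 groups of 8 mice (28 residual degrees of freedom), with no filter on low values. The Benjamini-Hochberg adjustment ran over all genes, with a threshold of 0.05. The number of arrays limits precision. The fit was tested on simulated data. Members given by range are the 2 per complex with the largest 7-week difference among those called, the Atp5g genes, isoforms, and Ndufs3; any member could be named. From other lists up to 3 called genes with the largest difference were named, and Ppargc1a, Esrra, Tfam, Nrf1 and Gabpa whatever their values. Of the promoters shown, those of Sdhd, Ndufs3, Ndufa9 and Atp5g3 were picked per motif. Each gene had the lowest adjusted p among called genes with a single listed promoter, not yet picked and not on chromosome 18. Atp5g2 and Atp5g1, not called at 7 weeks, were added as subunit c genes. Replicate numbers shared between groups were not treated as pairs: 9 of 48 same-number correlations exceeded 0.1, the highest at 0.232. Whether these numbers mark paired mice was not settled, as pairs with different numbers were not compared. None of 496 array pairs was identical. Alternatives were centring, quantile normalization, dim genes left out, feature means, trended and robust variances, array weights, a replicate block, separate fits, an exact rank-sum test and leaving out each mouse.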

Additional observations from a re-analysis of the deposited data

Results flagged for a closer look

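In 124 groups of 8 mice, for the named members, isoform pairs, Atp5g genes and complex means, 9 held 1 mouse far from the others by Dixon's criterion, and chance alone marks about 5% of groups. KO mouse 4 at 4 weeks was the lowest for Ndufs1 at 9.60, for Uqcrfs1 at 7.89 and for the complex II mean at 10.58. KO mouse 3 at 4 weeks was the highest for Cox8b at 7.12. KO mouse 8 at 7 weeks was the lowest for Atp5g2 at 11.20. Among WT mice, mouse 3 at 7 weeks was the lowest for Cox4i1 at 9.90 and for Atp5g3 at 9.67, mouse 4 at 7 weeks was the lowest for Atp5g1 at 5.85, and mouse 6 at 4 weeks was the lowest for Cox7b at 11.55.

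By the interaction test the genotype difference was not the same at the 2 ages for 29 members. The 7-week difference minus the 4-week difference was -0.60 for Ndufs1, -0.51 for Ndufaf4, -0.43 for Sdhd, -0.40 for Sdhc, -0.55 for Uqcrfs1, -1.12 for Cox6a2, -0.76 for Cox7a1 and -0.45 for Atp5pb. Of these 8, the call of Ndufaf4 was lost in 18 of 32 fits with 1 mouse left out (highest adjusted p = 0.077 in limma), and the other 7 kept theirs.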

How the results depend on the processing

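At 7 weeks the count of members lower in KO kidneys was 51 as reported, 72 with centred arrays, 44 after quantile normalization, 61 when only the 7-week groups were fitted, 64 by the exact rank-sum test, 63 with array weights and 41 to 53 when each mouse was left out. With the replicate number as a block it was 49, and 25 for the interaction. The interaction count moved to 52 with centred arrays and to 45 with array weights, and lay between 19 and 48 when each mouse was left out. Members higher with age in WT kidneys numbered 8 when only the groups compared were fitted and 9 by the rank-sum test, against 5 as reported and 4 after quantile normalization, where Uqcrc1 was lost, and lay between 5 and 6 when each mouse was left out. The same exercise gave 71 to 74 members lower with age in KO kidneys and 38 to 48 in WT kidneys, where centred arrays gave 40 and 45 were reported, and 0 called at 4 weeks. Signs turned at 7 weeks only in genes that were not called: after quantile normalization Atp5c1-ps was 0.0231, Atp5d 0.0038, Cox6a1 0.0137, Cox7b 0.12 and Uqcrb 0.13, and with centred arrays Cox7b2 was -0.0251 and Atp5g2 -0.11, the last also -0.0024 over all its features and -0.0036 with array weights. The cause was not tested. Whole-kidney signal limits what these values say of any cell type, and dim members such as Cox7b2 are measured near the low end of the scale.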
